A study of Clio pyramidata with 8 samples.

Results

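In the pteropod Clio pyramidata, 191 of 19379 tested transcripts had a higher value in every animal kept at 800 ppm CO2 (A, B, C and D) than in any animal kept at about 380 ppm CO2 (E, F, G and H), which is 0.986% of those tested. They were chosen by the measured levels themselves: a transcript belonged to the set when its mean over the 8 animals was at least 1 FPKM and its lowest 800 ppm value lay above its highest 380 ppm value. FPKM is the number of sequenced fragments scaled to transcript length and to the fragments mapped in each library, so levels can be compared between transcripts. The distance between the CO2 levels is therefore a property of how the set was made and is given below as a description, without a test. The table lists transcripts by accession number only. No source used here gives them a gene name, a function or a sequence, so the members are described by identifier and level. The mirror set, in which every 800 ppm animal stood below every 380 ppm animal, held 506 transcripts (2.61%). The size that either set would have by chance was not computed. Neither count is thus read as an effect of CO2.

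The series compared 8 adult animals, 4 at each CO2 level, each held singly in filtered seawater with streptomycin and ampicillin for 9 to 11 h and then frozen. The water had first been bubbled with ambient air or with the 800 ppm gas mixture, and the labels name no other difference in treatment. Each library came from 1 whole body taken out of its shell, so all tissues were pooled, and a change in the number of cells of a type cannot be told apart from a change of RNA per cell. RNA was extracted by either of 2 methods, and the labels do not say which animal had which. No marker of tissue or organism could be looked up without gene names.

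Clio pyramidata is a thecosome pteropod, a planktonic sea snail that swims with wing-like extensions of its foot and builds a thin shell of aragonite, a form of calcium carbonate. CO2 that dissolves in seawater lowers its pH and its carbonate ion concentration, and aragonite dissolves more readily as carbonate falls. Animals meet raised CO2 by moving acid-base equivalents across their epithelia and by depositing or repairing shell mineral, functions that rest on ion transporters, carbonic anhydrases and matrix proteins. Whether any transcript of the set encodes such a protein is not known from the files used.

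The libraries did not contribute evenly. D lacked 14.0% of the tested transcripts, which it listed at 0, and E lacked 8.51%, while the other 6 libraries lacked 0.485% to 2.37%, and the median level was 1.99 FPKM in D and 2.75 FPKM in E, against 3.27 to 3.70 FPKM elsewhere. D and E thus stand apart at opposite CO2 levels. The counts by the rule, the limma counts of members and the median correlation within groups are also given without them. Zeros, level shares, edge animals, spread, axes and neighbours are given with them only. Over all tested transcripts the median difference, 800 minus 380 ppm, was -0.10 on the scale of log2(FPKM + 1).

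The set was made up mostly of transcripts of low level. The median of the members' mean levels was 2.06 FPKM (quartiles 1.37 and 3.81), against 3.93 FPKM over all tested transcripts (quartiles 1.92 and 10.9), and 151 of the 191 (79.1%) averaged under 5 FPKM, against 57.0% of those tested. Members made up 1.82% of tested transcripts averaging 1 to 2 FPKM, 0.971% at 2 to 5, 0.536% at 5 to 20, 0.358% at 20 to 100 and 0.441% at 100 FPKM or more. In the mirror set the corresponding shares were 2.65%, 2.90%, 2.77%, 1.65% and 1.76%. The share of members was thus largest at the low end, where the mirror set's share changed little below 20 FPKM. The members' group means had a median of 3.09 FPKM at 800 ppm and of 0.902 FPKM at 380 ppm, the latter under the minimum. Many members thus passed the minimum through the group in which they were chosen to be high, and their mean levels depend on that choice.

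The typical member stood near 3 FPKM at 800 ppm and near 1 FPKM at 380 ppm. Among the 800 ppm animals A had a median of 3.38 FPKM over the members, B of 2.17, C of 2.81 and D of 3.35. Among the 380 ppm animals E had 0.70 FPKM, F 1.01, G 0.77 and H 1.05. Compared with all tested transcripts, whose medians were 3.38, 3.27, 3.57 and 1.99 FPKM in A, B, C and D, the members were not high at 800 ppm except in D. They lay below the tested median of every 380 ppm animal. Summed over the members, A reached 3007 FPKM, B 1661, C 2409 and D 2995, whereas E reached 746 FPKM, F 907, G 733 and H 855. The sums do not overlap, which the choice of members fixes.

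**Figure D1:**
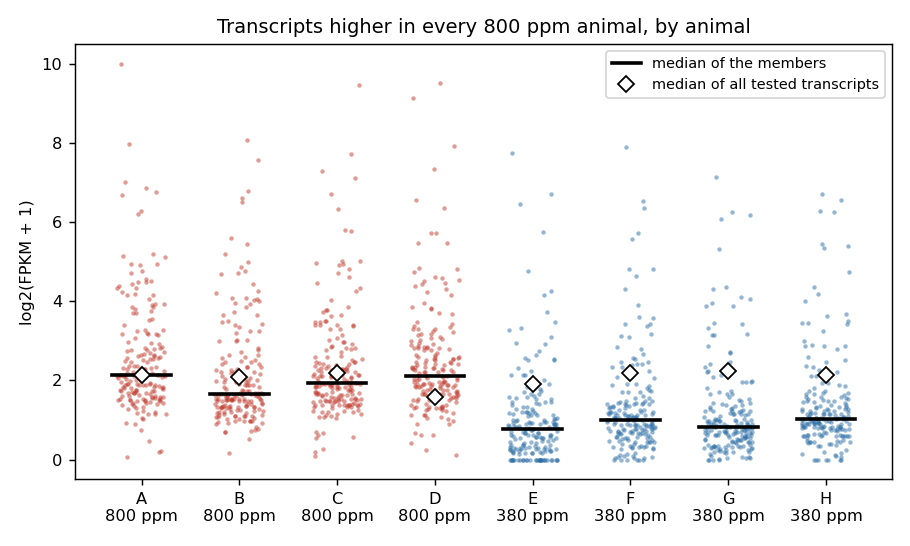
Level of each of the 191 members in each animal, as log2(FPKM + 1), with 800 ppm animals in red and 380 ppm animals in blue; black bars mark the members' median and open diamonds the median of all 19379 tested transcripts. The members' median lies below the tested median in E, F, G and H, and above it in D; in A the medians are equal at 3.38 FPKM.

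Zeros were uneven in the lower group. E was listed at 0 in 31 members (16.2%), F in 6, G in 4 and H in 7, and by the rule no 800 ppm animal was at 0. At 1 FPKM or more in all 8 animals were 39 members (20.4%), against 38.3% of tested transcripts. In 61 members (31.9%) every 380 ppm animal stood under 1 FPKM. The rule itself favours low 380 ppm values, and the matching share of all tested transcripts was not computed.

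Within the set, a narrow gap between the groups was the rule. The lowest 800 ppm value was a median of 1.22 times the highest 380 ppm value (quartiles 1.09 and 1.47), over the 190 members not at 0 in the whole 380 ppm group. In absolute terms the gap had a median of 0.33 FPKM, and in 33 members (17.3%) it was 0.1 FPKM or less. In 53 members (27.7%) the lowest 800 ppm value was less than 1.1 times the highest 380 ppm value, in 45 (23.6%) it was at least 1.5 times and in 17 (8.9%) at least 2 times, 1 of which was at 0 in all 380 ppm animals. The group means lay further apart, with a median ratio of 3.50 (quartiles 2.62 and 4.91). That order is fixed, since the edges of separated groups cannot lie further apart than their means. The mirror set had a like gap, with the lowest 380 ppm value a median of 1.18 times the highest 800 ppm value, where a ratio could be given. In 29 of its transcripts (5.73%) the gap was at least 2 times.

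**Figure D2:**
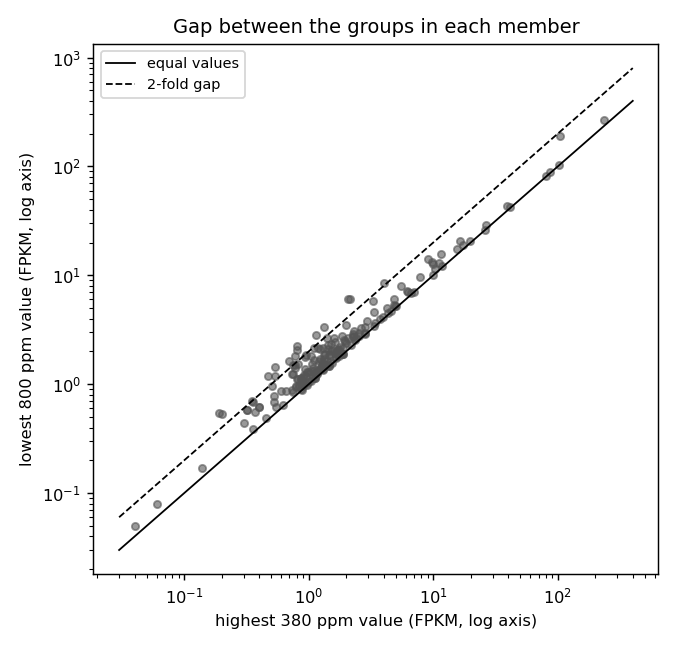
Lowest 800 ppm value against highest 380 ppm value of each member, both in FPKM on log axes; the solid line marks equal values and the dashed line a 2-fold gap. Most points lie close above the solid line, and the 1 member at 0 in every 380 ppm animal is not drawn.

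At the threshold of the gap, GAWL01027355 was just inside, with 1.90, 1.91, 3.95 and 2.58 FPKM in A to D and 0.30, 1.80, 1.1 and 1.89 FPKM in E to H. GAWL01009259 was inside by the same margin, with its lowest 800 ppm value at 1.88 FPKM (C) and its highest 380 ppm value at 1.87 FPKM (H). Just outside, 6 transcripts above 0 in every 800 ppm animal had equal values at the edge. The most abundant of them, GAWL01036025, stood at 15.03 FPKM in both D and H, and the next, GAWL01000735, at 1.71 FPKM in both B and H. These margins are as small as the rounding of the table, to 2 decimals.

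At the threshold of the mean, GAWL01043046 and GAWL01001125 were the lowest members, both at a mean of 1.02 FPKM. GAWL01026381, with a mean of 0.998 FPKM, and GAWL01010867, with 0.996 FPKM, met the other condition and fell short of the minimum. With no minimum mean, 343 transcripts were separated in this direction, 152 of them under 1 FPKM.

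The most abundant member was GAWL01023867, with 1020, 267, 704 and 726 FPKM in A to D and 213, 235, 140 and 92.5 FPKM in E to H. Its group means were 679 ± 310 and 170 ± 65.9 FPKM (SD, n = 4 each), and B lay only 31.8 FPKM above F. GAWL01022411 had 248, 189, 208 and 561 FPKM in A to D and 4.74, 91.5, 66.5 and 104 FPKM in E to H, so that D was far above the other 800 ppm animals and E far below the other 380 ppm animals. Its gap of 85.2 FPKM was the largest of any member in absolute terms.

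In the next members by level the groups nearly touched. GAWL01033615 had 107, 109, 103 and 242 FPKM in A to D and 103, 51.9, 74.7 and 76.0 FPKM in E to H, with C and E 0.66 FPKM apart. GAWL01026493 had 115, 89.2, 156 and 160 FPKM in A to D and 86.1, 46.4, 19.5 and 75.04 FPKM in E to H, with B 3.08 FPKM above E. In all, 7 members reached at least 10 FPKM in each of the 8 animals.

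The 4 widest gaps relative to FPKM + 1 were found in members averaging 2.86 to 6.19 FPKM. This measure shrinks gaps at low level, and by the plain ratio a member averaging 1.06 FPKM reached 2.84 times. GAWL01034576 had 13.4, 8.21, 6.01 and 8.87 FPKM in A to D and 1.93, 2.07, 0.98 and 0.70 FPKM in E to H, with C at 2.90 times F. GAWL01020865 had 13.5, 6.93, 9.41 and 6.08 FPKM in A to D and 2.04, 0.32, 2.13 and 1.22 FPKM in E to H, with D at 2.85 times G. In both, A was the highest animal, and all 800 ppm values lay well clear of the 380 ppm values.

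GAWL01023207 had 8.74, 8.58, 11.6 and 11.7 FPKM in A to D, the least spread on the log2 scale among the 800 ppm values of these 4 members, and 0.21, 2.65, 1.97 and 4.04 FPKM in E to H. GAWL01035068 had 6.17, 3.47, 3.38 and 6.28 FPKM in A to D and 0.58, 1.01, 1.33 and 0.69 FPKM in E to H. Its low values at 380 ppm were the tightest of the 4, with an SD of 0.338 FPKM (n = 4).

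**Figure D3:**
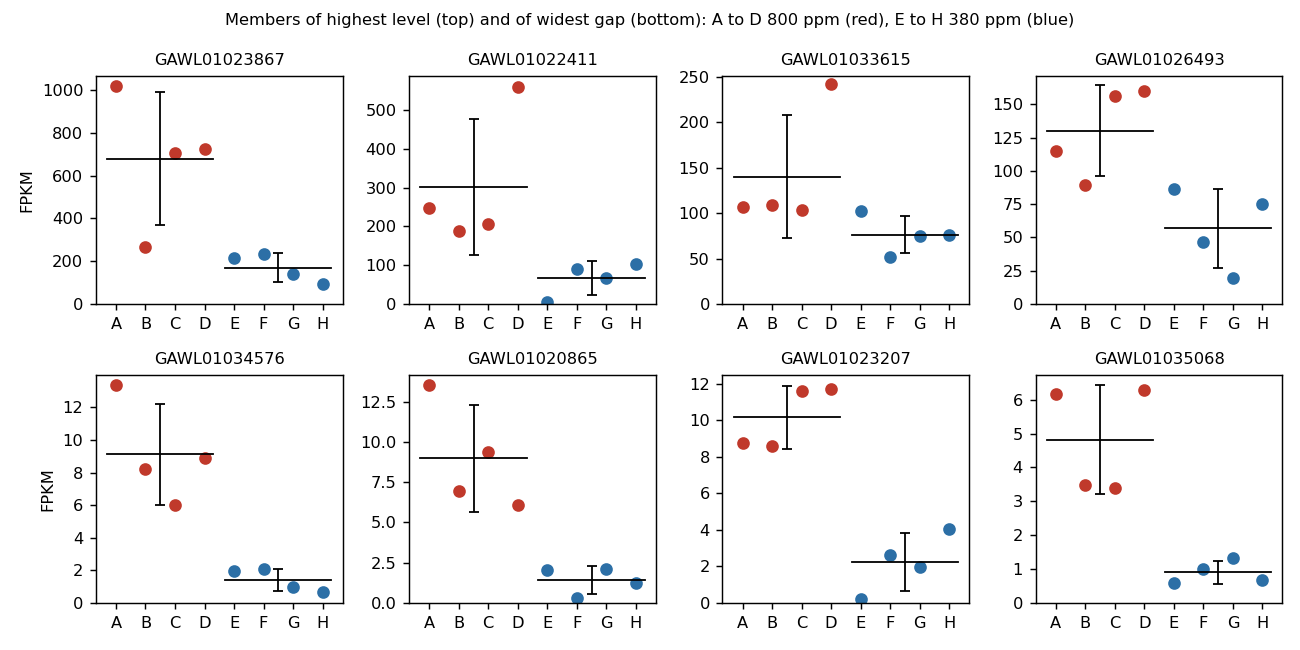
FPKM by animal in the 4 members of highest mean level (upper row) and the 4 with the widest gap relative to FPKM + 1 (lower row), with A to D at 800 ppm in red and E to H at 380 ppm in blue; lines and bars mark the group mean and SD (n = 4 each). In the upper row the groups nearly touch except in GAWL01022411, and in the lower row they lie clear of each other.

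No member passed the test fitted to all tested transcripts. With limma on log2(FPKM + 1) and Benjamini-Hochberg adjustment over 19379 transcripts, 0 of the 191 members had an adjusted p under 0.05, as did 0% of all transcripts tested for the higher direction, and the smallest adjusted p among members was 0.997. Without adjustment 136 members (71.2%) had a limma p under 0.05. Of all 19379 tested transcripts, 1.69% had such a p together with a higher level at 800 ppm. The selection forces this contrast. The members' log2 differences ran from 0.37 to 2.67, with a median of 1.08. For GAWL01034576, the member with the smallest p of the 8 described above, the difference was 2.06 with an SE of 0.42, and the limma adjusted p was 0.997.

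A few members owed their 800 ppm mean to 1 animal. In 30 of the 191 (15.7%) a single animal held over 50% of the summed 800 ppm level, against 29.6% of all tested transcripts. That animal was A in 12, D in 7, C in 6 and B in 5. The members described next were singled out after their values were seen.

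The 6 members with the largest ratio of means were of this kind. GAWL01040816, at a ratio of 466, stood at 18.2 FPKM in B but at 0.05, 0.06 and 0.33 FPKM in A, C and D, with F at 0.04 FPKM and E, G and H listed at 0. GAWL01040709, at a ratio of 453, stood at 52.0 FPKM in D and 24.6 in B, but at 0.17 and 0.20 FPKM in A and C, while E reached 0.14 FPKM. GAWL01040684, at a ratio of 75.9, stood at 35.9 FPKM in B and between 0.39 and 1.99 FPKM in A, C and D, with 0.01 to 0.36 FPKM at 380 ppm. In each of these 3 the groups were 0.03 FPKM apart or less.

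The other 3 were highest in A. GAWL01008912, at a ratio of 75.7, stood at 9.50 FPKM in A against 0.08 to 0.14 FPKM in B, C and D and at most 0.06 FPKM at 380 ppm. GAWL01029941, at a ratio of 37.2, stood at 29.7 FPKM in A against 1.19 to 2.95 FPKM in the rest of its group. GAWL01029953, whose number lies close to it, had a ratio of 32.8, with 12.9 FPKM in A against 0.53 to 1.82 FPKM. For 1 further member, GAWL01040704, no ratio can be given, since it was listed at 0 in all 4 of the 380 ppm animals. It stood at 15.3 FPKM in B, 2.65 in C, 0.14 in A and 0.19 in D, and no other member was at 0 in the whole group.

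Some animals set the edge of the gap in other shares of members than of all tested transcripts. B was the lowest 800 ppm animal in 93 members (48.7%), C in 43 (22.5%), D in 33 (17.3%) and A in 22 (11.5%). Over all tested transcripts D was the lowest of the 4 most often, in 44.7%, with B at 25.5%, A at 19.7% and C at 10.1%. On the other side H was the highest 380 ppm animal in 79 members (41.4%), F in 50 (26.2%), E in 35 (18.3%) and G in 27 (14.1%), whereas over all tested transcripts H was highest in 17.4% and the other 3 in 26.9% to 27.9%. By the rule, transcripts listed at 0 in D could not be members. Ties were given to the first animal by letter, so GAWL01040704, at 0 in E to H, counts under E.

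**Figure D4:**
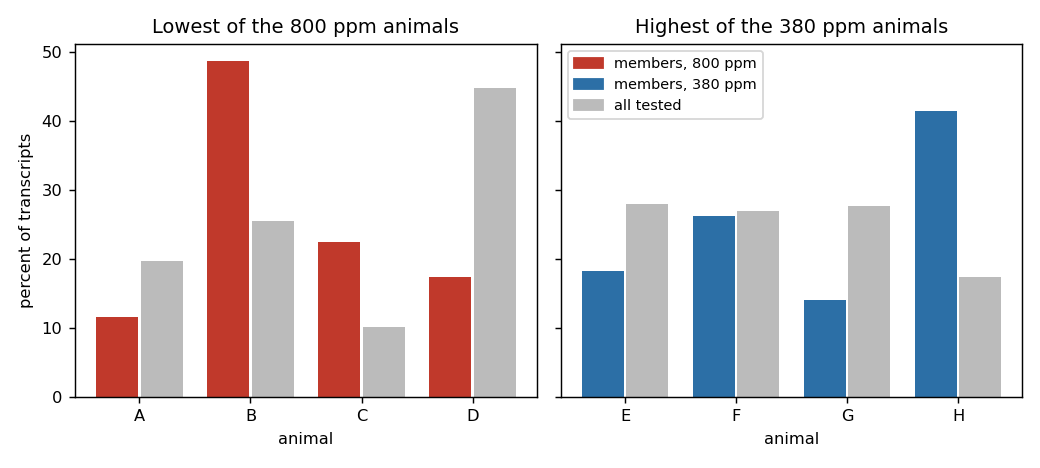
Percent of transcripts in which each animal was the lowest of the 800 ppm group (left) or the highest of the 380 ppm group (right), for the 191 members (red and blue) and for all tested transcripts (grey). B and H set the edge in 48.7% and 41.4% of members, against 25.5% and 17.4% of tested transcripts.

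At the upper end, A was the highest 800 ppm animal in 75 members (39.3%), D in 61 (31.9%), C in 40 (20.9%) and B in 15 (7.85%), against 22.8%, 25.6%, 24.2% and 27.3% of tested transcripts. E was the lowest 380 ppm animal in 100 members (52.4%), against 41.0% of those tested. The median SD of log2(FPKM + 1) among members was 0.45 at 800 ppm and 0.35 at 380 ppm, against 0.67 and 0.83 over all tested transcripts. The rule favours a small spread within groups, so smaller SDs in the members are no separate result. The SD was larger at 800 ppm in 63.9% of members, against 41.0% of tested transcripts. In the mirror set the order was reversed, with medians of 0.34 at 800 ppm and 0.48 at 380 ppm. In both sets the group chosen to be higher thus had the larger median SD, on a scale that understates differences at low level.

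With the group means taken off, members varied together only loosely. The correlation of log2(FPKM + 1) between members over the 8 animals, after centring each group on its own mean, had a median of 0.165 over 18145 pairs, with quartiles of -0.160 and 0.466. Over all pairs of tested transcripts the median was 0.027 with quartiles of -0.378 and 0.432. Pairs above 0.9 made up 0.893% of member pairs and 1.65% of all pairs. In the mirror set the median was 0.312. Pairs share the same 8 libraries, with their differences in zeros and scaling, so these values are a description.

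The leading axes of that variation set single animals against each other. The first axis carried 31.4% of the members' variation within groups and opposed B (weight 0.74) to A (-0.59). The second carried 24.4% and opposed D (0.61) to A (-0.44) at 800 ppm and H (0.28) to E (-0.55) at 380 ppm. Over all tested transcripts the first axis carried 47.4%. No axis carried more than 31.4% in the members.

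Few members were direct neighbours by identifier. A member was the next number to another for 4 of the 191, in 2 pairs, and of the 201 tested transcripts numbered next to a member 1.99% were members themselves, against 0.986% of all tested. Within 2 numbers, 12 members (6.28%) had another member and 2.80% of tested neighbours were members; within 5 numbers the values were 26 (13.6%) and 2.76%, and within 10 numbers 29 (15.2%) and 1.66%. Each of these shares of neighbours was above the 0.986% of all tested, but each wider distance holds the narrower ones again. They are therefore not separate readings, and neighbours more than 5 numbers away were not counted on their own. In the mirror set the share of direct neighbours was 11.0%, against 2.61% of all tested. The shares were not tested. Over all tested transcripts with consecutive numbers the centred correlation had a median of 0.191 (11231 pairs), so neighbours in number resembled each other somewhat more than other pairs.

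The 2 pairs differed in how alike they were. GAWL01014885 had 25.3, 6.93, 12.7 and 25.5 FPKM in A to D and 6.60, 5.88, 5.55 and 4.72 FPKM in E to H. GAWL01014886 had 14.1, 2.17, 10.3 and 8.85 FPKM in A to D and 0.85, 1.28, 1.87 and 1.58 FPKM in E to H. Both were lowest in B among the 800 ppm animals, and their centred correlation was 0.757.

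In the second pair GAWL01018169 had 4.07, 3.10, 3.18 and 3.22 FPKM in A to D and 2.30, 1.38, 1.01 and 1.98 FPKM in E to H. GAWL01018170 had 2.83, 3.66, 2.12 and 3.61 FPKM in A to D and 1.21, 1.17, 0.87 and 1.24 FPKM in E to H. A led in the first and B in the second, and their centred correlation was 0.248. Whether consecutive numbers belong to 1 gene is not stated in the files used. Along the numbering, the share of tested transcripts that were members ran from 0.612% to 1.37% over the blocks of 5000 numbers up to 45000.

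How far the set depends on single animals was seen by leaving each out of the choice. The set grew to 778 transcripts without D, 594 without E, 586 without B, 461 without H, 352 without F, 275 without C, 267 without G and 253 without A. When the left-out animal was read afterwards, D lay above all 380 ppm animals in 24.6% of the 778 transcripts chosen without it, against 14.0% of all tested transcripts. The share was 32.6% for B (15.1% of all tested), 69.5% for C (15.4%) and 75.5% for A (18.6%). Of the 380 ppm animals, E lay below all 800 ppm animals in 32.2% of the transcripts chosen without it (20.7% of all tested), H in 41.4% (11.4%), F in 54.3% (13.6%) and G in 71.5% (23.8%). These shares are raised by the selection itself, since a transcript already separated leaves more room for the last animal to fall on the same side. The share of all tested transcripts is therefore not the level that chance would give here. That level was not computed, so a share above the background is not read as agreement of the left-out animal.

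Leaving out 1 animal of each group gives a reading without that advantage. Among transcripts separated in the other 6 animals, the left-out 800 ppm animal was above the left-out 380 ppm animal in a median of 45.8% over the 16 pairs (range 17.0% to 75.1%), against a median of 48.9% over all tested transcripts (range 32.8% to 58.3%). It was above that background in 8 of the 16 pairs and above 50% in 8. The share was lowest with D and G left out, at 17.0%, and highest with A and G left out, at 75.1%. In the mirror direction the median was 60.9%, with 14 of 16 pairs above their background. The pairs share animals and are not independent, so no test was made of these shares or of the contrast between directions.

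**Figure D5:**
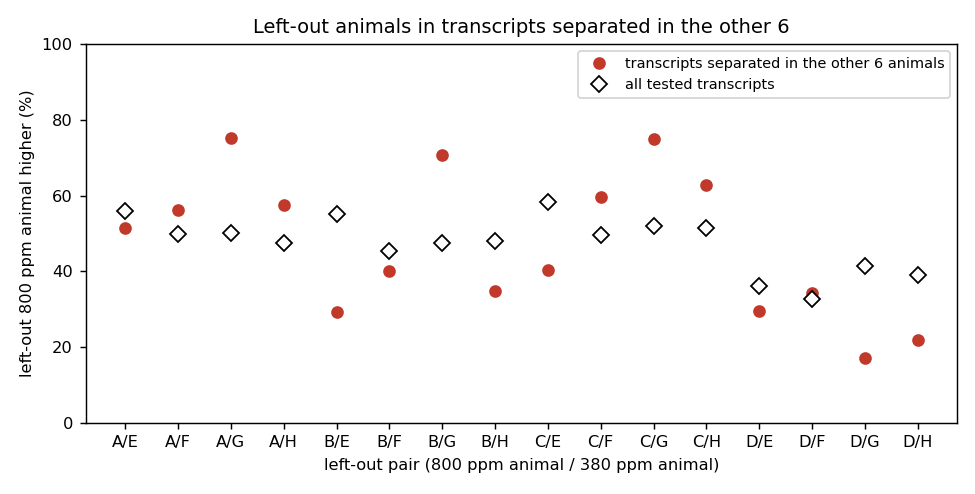
Percent of transcripts in which the left-out 800 ppm animal was higher than the left-out 380 ppm animal, for each of the 16 pairs: red points, transcripts whose other 6 animals were separated in the direction of the set; open diamonds, all tested transcripts. The red points lie on both sides of the diamonds, from 17.0% to 75.1%.

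Without both D and E, the rule held for 1356 transcripts and the mirror rule for 1745. The balance between the directions also moved with the scaling of the libraries. As deposited, the set made up 27.4% of the 697 transcripts separated in either direction. It made up 40.7% (266 against 387) after rescaling by median ratios, which brought the median log2 difference to -0.02, and 42.0% (265 against 366) after centring each library on its median. With every library scaled to an equal sum it was 73.8% (236 against 84). As deposited, the summed levels of the libraries were very unequal, from 450479 FPKM in G to 2202525 FPKM in E. With ranks within each library the set made up 33.6% (187 against 370). Of the 191 members, 178 were separated after rescaling by median ratios, 158 after median centring, 110 by rank and 86 with equal sums.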

How the data were processed

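Messenger RNA of 8 animals was sequenced, 1 library each. The authors deposited FPKM values on a TMM-normalized scale, as the file's name states, rounded to 2 decimals. Trimmomatic, Bowtie and edgeR are the tools in the submitters' processing notes, which give no version or role; assembly and counting program: not given in the sources used here. No read totals are in the table, so absolute depth is unknown and no counting interval is given. All 8 columns matched 1 animal by title.

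Tested were the transcripts averaging 1 FPKM or more. The model, limma 3.58.1 in R 4.3.3 with its intensity trend, was fitted to log2(FPKM + 1), which understates changes of low transcripts, with 4 animals a group and no covariate, Benjamini-Hochberg adjustment and a threshold of 0.05. The fit and the rule were tested on simulated data. Group-centred correlations, counts and medians were computed with Python 3.11.15 (numpy 2.4.6, pandas 2.3.3). The members, the lists and the alternatives were chosen with earlier results of these data known. Named were the 4 members of highest mean, the 4 of widest gap relative to FPKM + 1, 2 on each side of each threshold (ties by level, leaving out those at 0) and consecutive pairs; the 6 of largest ratio of means and the member at 0 in all 380 ppm animals were named after their values were seen. The planned gene lists were not run, since the sources used here give no gene names. Alternatives covered pseudocount, minimum mean, scaling, limma options and animals left out.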

Additional observations from a re-analysis of the deposited data

Results flagged for a closer look

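Among the transcripts named, some animals stood far from the 3 others of their group, as judged by Dixon's ratio of gap to range. D was far above the other 800 ppm animals in GAWL01022411 (561.39 FPKM) and GAWL01033615 (241.66 FPKM). B was far above them in GAWL01040704 (15.27 FPKM), GAWL01040816 (18.22 FPKM) and GAWL01040684 (35.86 FPKM). A was far above them in GAWL01018169 (4.07 FPKM), GAWL01008912 (9.50 FPKM), GAWL01029941 (29.66 FPKM) and GAWL01029953 (12.89 FPKM), and C in GAWL01026381 (4.32 FPKM), which just missed the minimum mean. At 380 ppm, F was the only animal above 0 in GAWL01040816 (0.04 FPKM). There were 11 such values over the 57 groups of 4 examined, which are more groups than the transcripts named supply. Chance flags about 1 in 20, and several of these transcripts were named because 1 animal was high.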

How the results depend on the processing

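No member passed an adjusted p of 0.05 in any of the 17 alternative limma fits, where the smallest adjusted p among members was 0.547, and no named member's log2 difference turned sign in them, which for separated groups only a rescaling could bring about. The count of 191 became 343 with no minimum mean, 40 with a minimum of 5 FPKM, 45 with a gap of at least 1.5-fold and 1356 without D and E. It ranged from 253 to 778 with 1 animal left out, where fewer values must be in order; it stayed within 1.5 times under the 4 scalings. The median correlation within groups, 0.165, was 0.139 with a pseudocount of 0.1, 0.144 as Spearman's rho, 0.226 without D and E and 0.091 to 0.218 with 1 animal left out. The median left-out share was 47.8% for single animals, which had to lie beyond the whole other group, against 11.4% to 23.8% of all tested transcripts. For pairs, where 1 left-out animal was compared with 1 other, it was 45.8%, against a median of 48.9%. The shares are unlike measures, and that for single animals is raised by the selection, so its background is not a chance level. Members with a member as neighbour numbered 4 at distance 1 and 12 to 29 within distances of 2 to 10, each of which includes the shorter ones. Unadjusted counts moved to 83 of the 191 members without D and E, and were 27 of the 40 members left at a minimum of 5 FPKM. Rounding to 2 decimals and few fragments limit members near 1 FPKM.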
